A study of Mus musculus with 13 samples.

Results

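The interferon-stimulated genes are a module of 35 mouse genes whose transcription rises when a cell senses interferon, and they were followed here in RNA-seq counts of natural killer (NK) cells. Members were chosen by name, and all 35 were found among the 54532 gene IDs of the count data through the GENCODE M21 annotation. The groups were LrNK cells labelled CD8KO (3 libraries), LrNK cells labelled wild type (WT, 4 libraries), cNK cells labelled CD8KO (3 libraries) and cNK cells labelled WT (3 libraries). LrNK stands for liver-resident NK cells, sorted from liver lymphocytes. The cNK cells, the circulating or conventional kind, are given as splenocytes in their labels. The titles of the cNK libraries of mice lacking CD8 read CD8, and their genotype is given as CD8KO. All mice were C57BL/6J and 8 to 10 weeks old. CD8KO denotes mice lacking CD8, a coreceptor of cytotoxic T cells that the study set in relation to the maturation of liver-resident NK cells. Since each cell type has its own organ in the labels, cell type and organ cannot be told apart. Nothing in the labels says that libraries came from separate animals, so p-values measure only the spread between these samples, which may be technical.

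Type I interferons bind the receptor made of Ifnar1 and Ifnar2, and the kinases Jak1 and Tyk2 then act on Stat2. Stat2 and Irf9 are part of a complex that binds the interferon-stimulated response element (ISRE) before many of these genes. Interferon gamma, which NK cells secrete, acts through its own receptor with Jak1 and Jak2, and induces an overlapping set that includes Irf1 and the guanylate-binding proteins. The products sense foreign nucleic acid, block virus entry and exit, degrade RNA or damp the signal again, and many are kept at a low level without infection.

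To show what the members share beyond their name, the stretch before the transcription start was read from the RefSeq promoter table (GRCm38.p6, 250 bases before to 50 bases after each start), which held 26 of the 35 members. The letters searched were GAAANNGAAA, the core of the ISRE, and on the other strand TTTCNNTTTC; matches may overlap each other. Of these 26 genes, 15 (57.7%) held a match in the window, against 3.99% of the 27025 genes in the table. Of the 26, 11 (42.3%) held one lying wholly before the start, a share that was not counted over all genes. A match is a description of letters and not a binding site. The stretches below belong to 4 members that differed between the cell types in both labels (Isg15, Oas1a, Rsad2 and Bst2) and to Trim30a, which holds the letters and differed in neither. Each is the 160 bases before the start, read 5′ to 3′ on the gene's strand, with matches in capitals. Isg15 lies at chr4:156200819-156200978, Oas1a at chr5:120907526-120907685, Rsad2 at chr12:26456453-26456612, Bst2 at chr8:71537473-71537632 and Trim30a at chr7:104465194-104465353, all on the minus strand.
Isg15: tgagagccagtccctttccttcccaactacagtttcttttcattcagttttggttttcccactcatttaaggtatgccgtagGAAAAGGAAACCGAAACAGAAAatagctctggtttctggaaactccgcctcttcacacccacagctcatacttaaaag
Oas1a: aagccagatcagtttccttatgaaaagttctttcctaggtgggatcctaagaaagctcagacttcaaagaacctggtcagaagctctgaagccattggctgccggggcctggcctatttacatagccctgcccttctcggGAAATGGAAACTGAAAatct
Rsad2: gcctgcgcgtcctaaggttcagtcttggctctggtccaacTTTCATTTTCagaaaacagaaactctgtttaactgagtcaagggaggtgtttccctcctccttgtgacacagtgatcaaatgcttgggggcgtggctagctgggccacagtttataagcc
Bst2: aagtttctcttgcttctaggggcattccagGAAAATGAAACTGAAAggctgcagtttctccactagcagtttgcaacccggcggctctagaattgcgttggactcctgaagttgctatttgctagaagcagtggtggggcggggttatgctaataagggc
Trim30a: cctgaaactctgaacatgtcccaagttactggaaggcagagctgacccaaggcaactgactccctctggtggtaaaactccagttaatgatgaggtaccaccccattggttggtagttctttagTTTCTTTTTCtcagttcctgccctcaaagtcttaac
The capitals in Isg15 are 3 overlapping matches, those in Oas1a and Bst2 are 2 each, and Rsad2 and Trim30a hold 1 each, both read on the other strand. Counted back from the start, the matches of Oas1a end at position -5, and those of Bst2 begin at position -130.

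For 3 further members that differed between the cell types in at least 1 label, an annotated exon reaches into the longer stretch, so only 30 bases around the match are shown, again with matches in capitals. Ifit1 is at chr19:34640784-34640813 on the plus strand, Oas3 at chr5:120777715-120777744 on the minus strand and Gbp2 at chr3:142620594-142620623 on the plus strand.
Ifit1: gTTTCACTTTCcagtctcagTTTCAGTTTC
Oas3: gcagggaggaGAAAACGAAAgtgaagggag
Gbp2: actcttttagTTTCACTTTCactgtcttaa
Ifit1 holds 2 separate matches in this stretch. Irf1, Irf7, Isg20, Oasl1 and Oasl2, which also differed between the cell types, had no match in their windows, which says only that these letters are not in the stretch searched.

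Libraries held 30578631 to 47655853 counts in LrNK cells and 48600875 to 72716020 counts in cNK cells. LrNK libraries 2 and 3 labelled CD8KO agreed far more closely than any other pair of their group (chi-square per degree of freedom 2.67, against 255 and 265). So did LrNK libraries 2 and 4 labelled WT (3.04, against 196 to 283). Each of these pairs was summed and counted as 1 sample, which left 2 LrNK samples labelled CD8KO, 3 LrNK samples labelled WT, and 3 cNK samples of each label. LrNK sample 1 labelled CD8KO and LrNK samples 1 and 3 labelled WT detected 13917 to 15797 genes, and the other libraries 19896 to 22921. The targeted gene went against the labels. Cd8a was at 41.6 and 43.7 counts per 1e6 counts of the library (CPM) in LrNK samples labelled CD8KO, against 20.1 to 20.5 CPM in LrNK samples labelled WT. It was at 85.9 to 109.1 CPM in cNK samples labelled CD8KO, against 0.561 to 0.578 CPM in cNK samples labelled WT. Counts per gene do not show whether reads fall in the deleted stretch. Groups are therefore called by their labels, and every direction by label below depends on labels that Cd8a did not bear out. The cell type labels fitted their markers. Eomes, a factor of conventional NK cells, was at 0.494 to 9.62 CPM in LrNK samples and 639.7 to 703.5 CPM in cNK samples. Cxcr6, a chemokine receptor of the liver-resident kind, was at 115.0 to 351.5 CPM in LrNK samples and 2.67 to 4.5 CPM in cNK samples.

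Every member was detected in every sample. The 35 members summed to 4144.0 and 2866.3 CPM in LrNK samples labelled CD8KO and to 2439.8, 1776.0 and 3057.2 CPM in LrNK samples labelled WT. They summed to 1688.8, 1695.5 and 1802.9 CPM in cNK samples labelled CD8KO and to 1847.8, 1639.5 and 1613.5 CPM in cNK samples labelled WT. The cNK samples of the 2 labels thus overlapped in this sum, and so did the LrNK samples. Per kilobase of exon, the highest mean level in cNK samples was that of Irf1, with 73.8 CPM per kb in those labelled CD8KO and 77.4 CPM per kb in those labelled WT. In LrNK samples Ifitm3 was highest, with mean levels of 564.2 CPM per kb in those labelled CD8KO and 260.8 CPM per kb in those labelled WT. The lowest mean level per kilobase in LrNK samples was that of Ifi44, and in cNK samples that of Oas2.

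**Figure D1:**
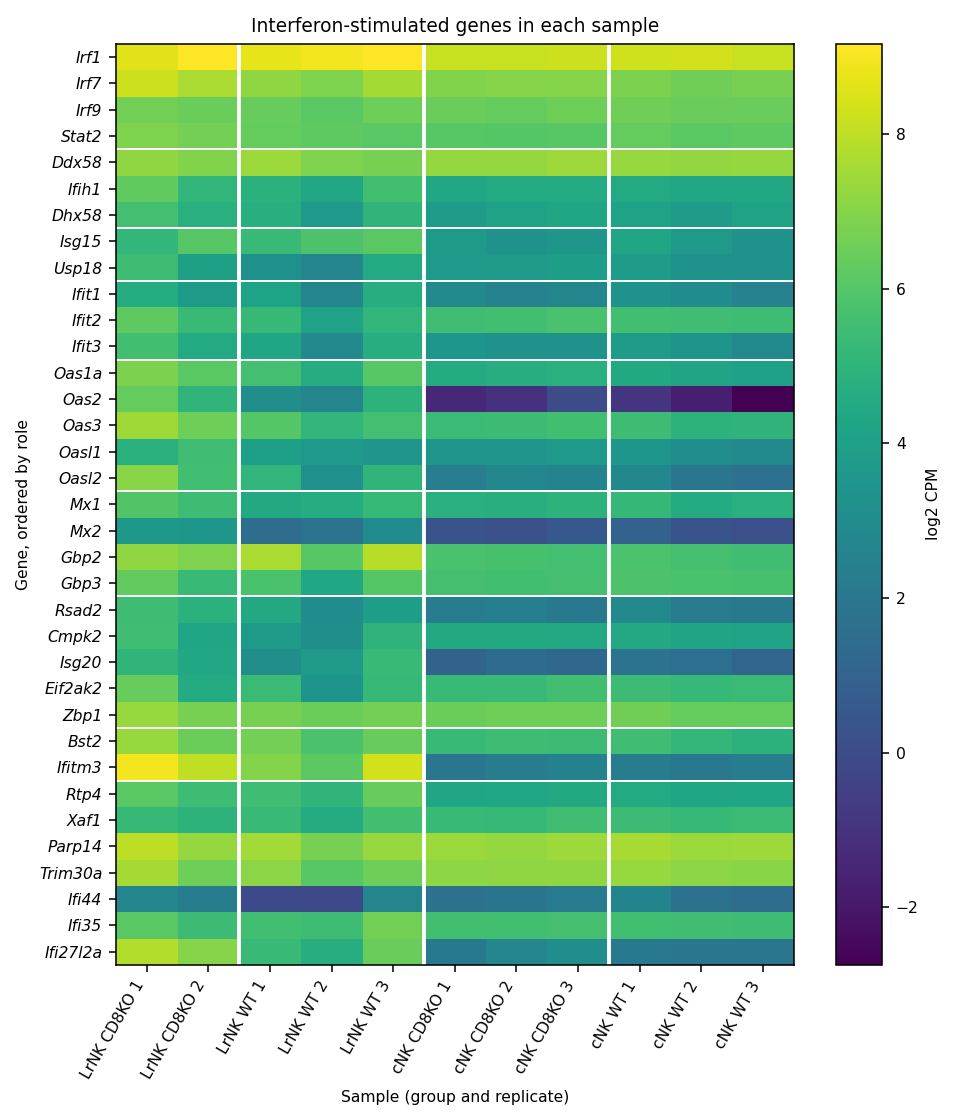
Level of each of the 35 interferon-stimulated genes (rows, ordered by role) in each of the 11 samples (columns, labelled by group and replicate), coloured by log2 CPM. Ifitm3, Ifi27l2a and Oas2 change colour between the LrNK and cNK columns, while Ddx58, Irf9 and Trim30a look much alike throughout.

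Members varied far more between LrNK samples than between cNK samples of a group. The median over members of the highest sample divided by the lowest was 1.65 in LrNK samples labelled CD8KO, 2.58 in LrNK samples labelled WT, 1.16 in cNK samples labelled CD8KO and 1.22 in cNK samples labelled WT. Among the 5 LrNK samples, sample 1 labelled CD8KO was the highest for 24 of the 35 members. LrNK sample 2 labelled WT was the lowest for 26. The sum of 12 neutrophil and monocyte markers had its highest and lowest LrNK values in the same samples. It was 10091.5 and 3173.0 CPM in LrNK samples labelled CD8KO and 3139.3, 1158.1 and 4901.7 CPM in LrNK samples labelled WT. In cNK samples it was 1047.7 to 1114.0 CPM in those labelled CD8KO and 955.0 to 1064.5 CPM in those labelled WT. No marker of that list was at 0 in the LrNK samples labelled CD8KO. In those labelled WT, 2 to 4 of the 12 were at 0, Lcn2 and Retnlg in every one of them. Lyz2, the lysozyme of myeloid cells, had 7410.9 and 1962.5 CPM in LrNK samples labelled CD8KO and 1844.3, 520.3 and 3531.6 CPM in LrNK samples labelled WT. It had 14.3 to 18.9 CPM in cNK samples labelled CD8KO and 12 to 16.3 CPM in cNK samples labelled WT. Lyz2 alone made up most of the sum in LrNK sample 1 labelled CD8KO. Of the 12 markers, 11 were positive between the labels in LrNK cells and 1, Mmp9, was negative. Mmp9 had 162.7 and 180.5 CPM in LrNK samples labelled CD8KO, against 422.8, 355.9 and 229.9 CPM in LrNK samples labelled WT. The cNK sums were mostly Ccr2 and Ly6c2, with means of 767.0 and 202.5 CPM in those labelled CD8KO and 669.6 and 258.2 CPM in those labelled WT. In LrNK sample 2 labelled WT, whose sum was near theirs, these were at 90.6 and 43.8 CPM. The 10 Kupffer cell markers summed to 445.0 and 214.9 CPM in LrNK samples labelled CD8KO and to 113.4 to 334.9 CPM in those labelled WT. The 7 NK cell markers summed to 3405.6 and 3994.0 CPM in LrNK samples labelled CD8KO and 6480.6 to 7891.9 CPM in LrNK samples labelled WT. The cNK sums were all above these, at 12062.4 to 12716.4 CPM in cNK samples labelled CD8KO and 11350.3 to 12437.8 CPM in cNK samples labelled WT. The 8 T cell markers summed to 748.6 and 918.5 CPM in LrNK samples labelled CD8KO and 1329.7 to 1649.8 CPM in LrNK samples labelled WT. Here the cNK sums were all below these, at 440.7 to 455.6 CPM in cNK samples labelled CD8KO and 397.5 to 436.5 CPM in cNK samples labelled WT. Taken singly, 5 of the 8 T cell markers were positive between the labels in LrNK cells and 3 negative, with a median log2 difference of 0.31. Cd3g, which weighs heavily in the sum, was at 178.7 and 177.9 CPM in LrNK samples labelled CD8KO. In LrNK samples labelled WT it was at 537.8 to 620.5 CPM. The 10 B cell markers summed to 319.9 and 450.4 CPM in LrNK samples labelled CD8KO and 242.4 to 365.0 CPM in LrNK samples labelled WT, with 0 to 2 and 0 to 5 of the 10 at 0. In cNK samples they summed to 230.5 to 244.5 CPM in those labelled CD8KO and 180.1 to 196.0 CPM in those labelled WT. Cd79a, a part of the B cell receptor, was at 40.2 CPM in LrNK sample 2 labelled CD8KO and at 0.517 to 3.48 CPM in LrNK samples labelled WT. The sum of the 6 plasmacytoid dendritic cell markers, those of the main makers of interferon alpha, did not overlap between the labels in LrNK cells. Of the 6 markers taken singly, 1 did not overlap. They summed to 65.3 and 49.5 CPM in LrNK samples labelled CD8KO, with 0 at 0, and 34.3 to 45.3 CPM in LrNK samples labelled WT, with 0 to 2 at 0. Their sums were 57.4 to 58.4 CPM in cNK samples labelled CD8KO and 56.9 to 67.3 CPM in cNK samples labelled WT. Most of each sum was Tcf4, which overlapped between the labels in LrNK cells. Tcf4 was at 38.6 and 28.7 CPM in LrNK samples labelled CD8KO, 25.4 to 36.0 CPM in those labelled WT and 50.8 to 60.3 CPM in cNK samples. Siglech was at 0.489 to 11.4 CPM in LrNK samples and 0.0275 to 0.16 CPM in cNK samples. The 8 hepatocyte markers separated the cell types. They summed to 24.7 and 50.5 CPM in LrNK samples labelled CD8KO and 19.3 to 49.7 CPM in LrNK samples labelled WT, against 0.436 to 0.647 CPM in cNK samples labelled CD8KO and 0.335 to 1.16 CPM in cNK samples labelled WT. The part of other cell types in the members' levels was not tested, and in bulk samples fewer cells of a type and less RNA per cell cannot be told apart.

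**Figure D2:**
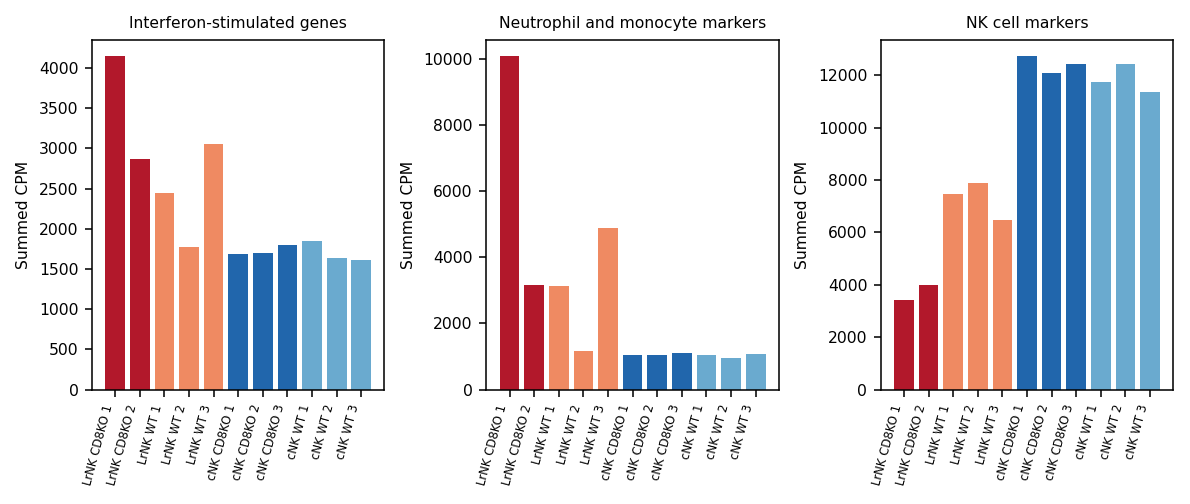
Summed CPM per sample of the 35 interferon-stimulated genes, the 12 neutrophil and monocyte markers and the 7 NK cell markers; each bar is 1 sample and the axes start at 0. LrNK sample 1 labelled CD8KO has the highest bar in the panels of interferon-stimulated genes and of myeloid markers, at 4144.0 and 10091.5 CPM, and the lowest among NK cell markers, at 3405.6 CPM.

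The clearest difference in the module lay between the cell types. In samples labelled CD8KO, 23 of the 35 members were higher in LrNK than in cNK cells and 0 were lower (edgeR quasi-likelihood test, Benjamini-Hochberg adjusted p under 0.05 over the 17795 genes tested). Of all genes, 15.4% were called higher, 11.6% lower and 27.0% either way. In samples labelled WT, 13 members were higher and 0 lower. Of the 16456 genes tested, 10.9% were called higher, 9.83% lower and 20.7% either way. The median log2 difference of the members was 1.30 in samples labelled CD8KO, against -0.05 for all genes, and 0.61 in samples labelled WT, against -0.08 for all genes. All 13 members called under WT were called under CD8KO too, and 12 were called under neither label.

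Of the restriction factors at membranes, Ifitm3, which blocks the fusion of entering viruses, had 499.5 and 265.6 CPM in LrNK samples labelled CD8KO, against 3.81, 4.78 and 5.64 CPM in cNK samples of that label. In samples labelled WT it had 126.5, 72.9 and 331.0 CPM in LrNK cells, against 4.75, 4.10 and 4.84 CPM in cNK cells. The cell types lay far apart under each label. Ifitm3 was 86.9-fold higher in LrNK cells under CD8KO (log2 difference 6.44 ± 0.32 SE, edgeR adjusted p = 0.000332), and 40.4-fold higher under WT (5.33 ± 0.59, edgeR adjusted p = 0.00221). Bst2, or tetherin, which holds budding virions at the cell surface, had 162.5 and 89.5 CPM in LrNK samples labelled CD8KO, against 40.3 to 44.4 CPM in cNK samples of that label. It had 102.1, 53.0 and 85.3 CPM in LrNK samples labelled WT, against 46.2, 35.8 and 29.7 CPM in cNK samples of that label. Bst2 did not overlap between the cell types under either label. Its log2 differences were 1.68 ± 0.22 under CD8KO (edgeR adjusted p = 0.00530) and 1.17 ± 0.26 under WT (edgeR adjusted p = 0.0238).

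The OAS family includes enzymes that make oligoadenylates, which activate RNase L. Its members lie on chromosome 5 (GRCm38), with Oas2, Oas3 and Oas1a between 120730333 and 120907521 and Oasl2 and Oasl1 between 114896936 and 114937915. Oas2 had 81.8 and 33.7 CPM in LrNK samples labelled CD8KO, against 0.370, 0.486 and 1.01 CPM in cNK samples of that label. Oas2 had 8.93, 6.55 and 30.6 CPM in LrNK samples labelled WT, against 0.524, 0.303 and 0.149 CPM in cNK samples of that label. Every LrNK sample was thus above every cNK sample. The log2 difference was 6.62 ± 0.56 (98.5-fold) under CD8KO and 5.60 ± 0.85 (48.4-fold) under WT (edgeR adjusted p = 0.00139 and 0.00669). The neighbouring Oas1a differed much less, with 112.8 and 69.8 CPM in LrNK samples labelled CD8KO, against 24.1 to 28.5 CPM in cNK samples of that label (log2 difference 1.92 ± 0.19, edgeR adjusted p = 0.00218). Oas1a had 49.4, 24.6 and 66.9 CPM in LrNK samples labelled WT, against 22.2, 18.5 and 17.1 CPM in cNK samples (1.34 ± 0.33, edgeR adjusted p = 0.0332). Oas3, between the Oas2 and Oas1a genes, was higher under CD8KO (1.73 ± 0.25, edgeR adjusted p = 0.00644) and not called under WT (0.52 ± 0.24, edgeR adjusted p = 0.193). Of the OAS-like members, Oasl2 was higher in LrNK cells under CD8KO (3.98 ± 0.43) and WT (2.47 ± 0.54, edgeR adjusted p = 0.0027 and 0.0236). Oasl1 was called under CD8KO (1.79 ± 0.25, edgeR adjusted p = 0.00619) and not under WT (0.58 ± 0.27, edgeR adjusted p = 0.193). Reads of Oas1a may be shared with its near copies such as Oas1g, so its level is uncertain to that extent.

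**Figure D3:**
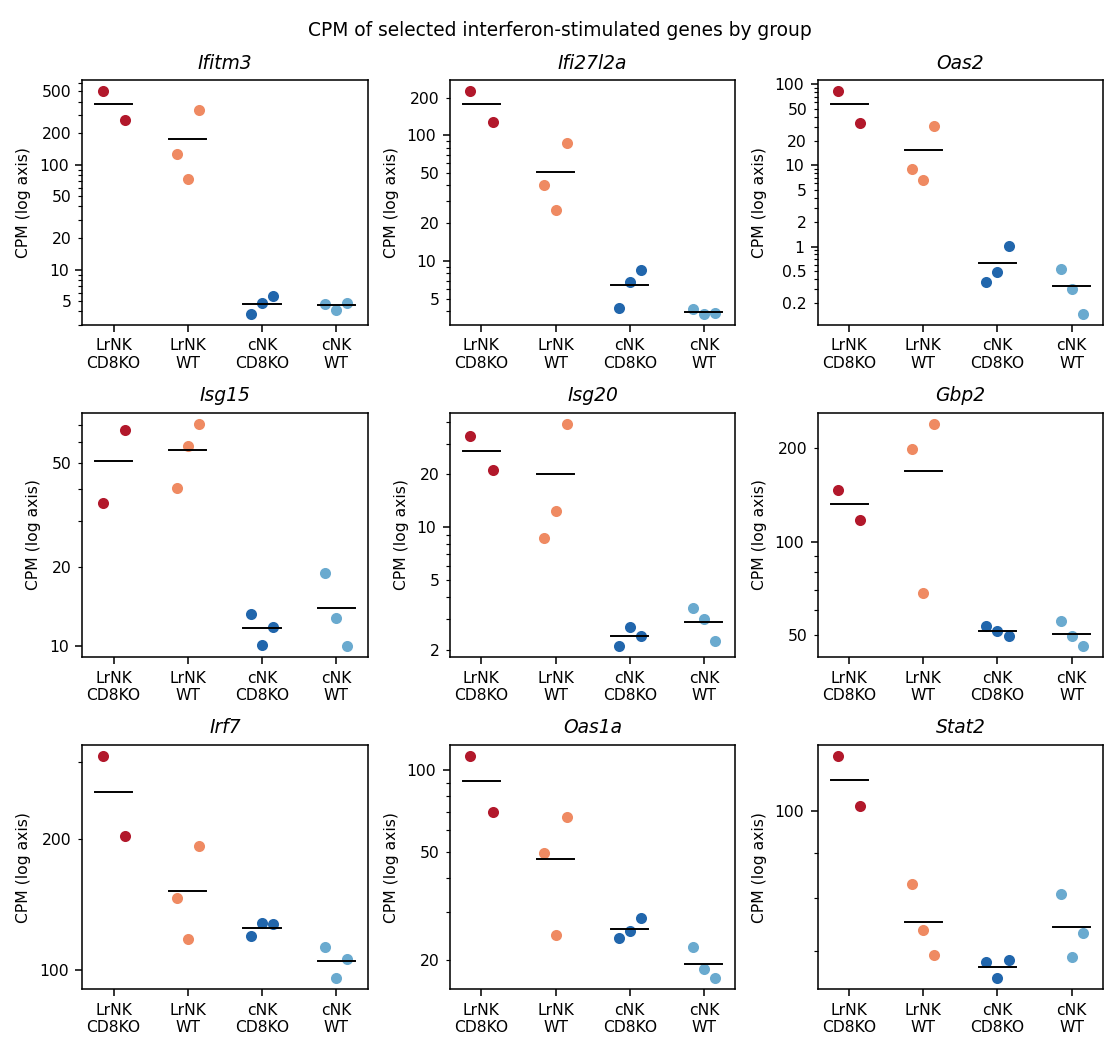
CPM of 9 interferon-stimulated genes on log axes; each point is 1 sample, the line is the group mean, and groups run from LrNK labelled CD8KO and LrNK labelled WT to cNK labelled CD8KO and cNK labelled WT. Ifitm3, Ifi27l2a and Oas2 separate LrNK from cNK samples completely, while Stat2 has its highest values in the LrNK samples labelled CD8KO, at 115.3 and 101.4 CPM.

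Ifi27l2a, a small hydrophobic protein of the Ifi27 family, was also far higher in LrNK cells. It had 224.1 and 128.5 CPM in LrNK samples labelled CD8KO, against 4.26, 6.75 and 8.42 CPM in cNK samples of that label. Ifi27l2a had 40.1, 25.4 and 87.5 CPM in LrNK samples labelled WT, against 4.16, 3.81 and 3.87 CPM in cNK samples of that label. The cell types did not overlap. The log2 difference was 4.88 ± 0.35 (29.4-fold) under CD8KO and 3.75 ± 0.46 (13.5-fold) under WT (edgeR adjusted p = 0.000916 and 0.0030). Isg15, a ubiquitin-like protein that is conjugated to other proteins, had 35.1 and 66.8 CPM in LrNK samples labelled CD8KO, against 13.2, 10.1 and 11.8 CPM in cNK samples of that label. In samples labelled WT it had 40.3, 57.9 and 70.8 CPM in LrNK cells, against 19.0, 12.8 and 10.0 CPM in cNK cells. Unlike most members, Isg15 had its lowest LrNK value in sample 1 labelled CD8KO. It was higher in LrNK cells under CD8KO (2.27 ± 0.32) and WT (2.1 ± 0.32, edgeR adjusted p = 0.00624 and 0.00669). Usp18, the protease that removes Isg15 and damps the type I receptor, was not called under CD8KO (1.24 ± 0.38, edgeR adjusted p = 0.0644) or WT (0.20 ± 0.47, edgeR adjusted p = 0.827).

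Among nucleases and enzymes that act on nucleotides or RNA, Isg20, an exonuclease, had 33.0 and 21.3 CPM in LrNK samples labelled CD8KO, against 2.1 to 2.71 CPM in cNK samples of that label. Isg20 had 8.72, 12.4 and 39.0 CPM in LrNK samples labelled WT, against 2.24 to 3.44 CPM in cNK samples of that label. The cell types did not overlap under either label. Rsad2, or viperin, which makes a chain-terminating nucleotide, had 44.3 and 29.0 CPM in LrNK samples labelled CD8KO, against 4.26 to 5.30 CPM in cNK samples of that label. Rsad2 had 22.1, 8.31 and 15 CPM in LrNK samples labelled WT, against 4.17 to 7.47 CPM in cNK samples of that label. Rsad2 did not overlap either, although the gap between 8.31 CPM in LrNK and 7.47 CPM in cNK samples was narrow under WT. Isg20 differed by 3.61 ± 0.23 under CD8KO and 2.85 ± 0.61 under WT (log2, edgeR adjusted p = 0.000675 and 0.0218). Rsad2 differed by 3.05 ± 0.21 and 1.56 ± 0.43 (edgeR adjusted p = 0.000799 and 0.0457). Cmpk2, a nucleotide kinase whose gene adjoins Rsad2 on chromosome 12, was called under neither label (0.66 ± 0.32 under CD8KO and -0.02 ± 0.43 under WT). Eif2ak2, the kinase PKR that halts translation on double-stranded RNA, was also called under neither. Zbp1, a sensor of Z-form nucleic acid, was higher under CD8KO (0.66 ± 0.16, edgeR adjusted p = 0.0335) and not called under WT (0.29 ± 0.11, edgeR adjusted p = 0.121).

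Among the GTPases and the IFIT proteins, neighbouring genes differed from each other. Gbp2, a guanylate-binding protein that attacks pathogen vacuoles, had 146.8 and 117.1 CPM in LrNK samples labelled CD8KO, against 49.6 to 53.4 CPM in cNK samples of that label. Gbp2 had 199.0, 68.1 and 240.2 CPM in LrNK samples labelled WT, against 46.1 to 55.6 CPM in cNK samples of that label. It was higher in LrNK cells under both labels (1.47 ± 0.11 under CD8KO and 1.80 ± 0.41 under WT, edgeR adjusted p = 0.0010 and 0.0260). Gbp3 on the same chromosome was called under neither (0.35 ± 0.27 and -0.15 ± 0.35). The dynamin-like Mx1 and Mx2 were higher under CD8KO (1.00 ± 0.15 and 3.34 ± 0.25, edgeR adjusted p = 0.00728 and 0.000943). Neither was called under WT, where Mx1 differed by 0.00 ± 0.24 and Mx2 by 1.79 ± 0.63 (edgeR adjusted p = 0.994 and 0.0983). Of the RNA-binding IFIT proteins on chromosome 19, Ifit1 and Ifit3 were higher in LrNK cells under CD8KO (1.61 ± 0.28 and 1.82 ± 0.29, edgeR adjusted p = 0.0123 and 0.00923) and not called under WT (1.10 ± 0.49 and 0.74 ± 0.46). Ifit2, whose gene lies beside them, was called under neither. Under WT each of its LrNK samples, at 37.6, 17.4 and 34.2 CPM, was below each cNK sample, at 46.9, 45.6 and 44.6 CPM. Reads of Ifit1 and Ifit3 may be shared with near copies.

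Of the transcription factors, Irf1 had 400.9 and 572.5 CPM in LrNK samples labelled CD8KO, against 287.6 to 305.1 CPM in cNK samples of that label. Irf1 had 418.2, 501.7 and 576.9 CPM in LrNK samples labelled WT, against 284.0 to 325.7 CPM in cNK samples of that label. It was higher in LrNK cells under CD8KO (0.86 ± 0.19) and WT (0.78 ± 0.16, edgeR adjusted p = 0.0243 and 0.0176). The cell types did not overlap. Irf7, which switches on the interferon alpha genes, had 309.3 and 203.2 CPM in LrNK samples labelled CD8KO, against 119.8, 128.1 and 127.4 CPM in cNK samples of that label. Irf7 had 146.1, 118.1 and 192.0 CPM in LrNK samples labelled WT, against 112.8, 95.8 and 106.0 CPM in cNK samples of that label. The difference was 1.15 ± 0.16 under CD8KO and 0.61 ± 0.17 under WT (edgeR adjusted p = 0.0062 and 0.0458). Exons of Phrf1 overlap Irf7 on the other strand. Since the strand used in counting is not given in the sources used here, their reads cannot be told apart. Stat2 was higher in LrNK cells under CD8KO (0.81 ± 0.09, edgeR adjusted p = 0.00314) and not called under WT (0.10 ± 0.12, edgeR adjusted p = 0.634). Irf9, its partner, was called under neither label, and shares exon sequence with Rnf31 on the same strand. The RNA sensors Ifih1 (MDA5) and Dhx58 (LGP2) were higher under CD8KO (1.42 ± 0.30 and 1.30 ± 0.24, edgeR adjusted p = 0.0227 and 0.0156) and not called under WT (0.67 ± 0.29 and 0.61 ± 0.32). Ddx58 (RIG-I) was at 144.1 and 120.5 CPM in LrNK samples labelled CD8KO, against 156.9 to 172.5 CPM in cNK samples of that label, and was called under neither label.

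Of the remaining members, Rtp4, a chaperone of membrane receptors, was higher in LrNK cells under CD8KO (1.54 ± 0.18) and WT (1.45 ± 0.33, edgeR adjusted p = 0.00335 and 0.0261). Parp14, Trim30a, Xaf1, Ifi35 and Ifi44 were called under neither label, with log2 differences from -0.13 for Xaf1 to 0.70 for Ifi44 under CD8KO and from -0.52 for Ifi44 to 0.54 for Ifi35 under WT. By overlap of the samples, 25 members lay higher in every LrNK than in every cNK sample under CD8KO, where 23.3% of all genes did, and 14 under WT, where 17.0% did. In the opposite direction only Ddx58 lay lower under CD8KO, where 38.4% of all genes did, and only Ifit2 under WT, where 31.7% did.

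These counts depended on individual samples. Leaving out any cNK sample labelled WT left 4 members called between LrNK and cNK cells of that label, the same ones each time: Ifitm3, Ifi27l2a, Oas2 and Isg15. Without LrNK samples 1 and 3 labelled WT, those with fewer detected genes and higher myeloid marker sums, the members' median was 0.07. That fit assumes that the lone LrNK sample varies like the cNK samples. Ifitm3 was then at 4.11, Oas2 at 4.40, Ifi27l2a at 2.79 and Isg15 at 2.16 on the log2 scale. Other members lay the other way, and in the LrNK sample left Ifit2 was at 17.4 CPM and Eif2ak2 at 10.8 CPM. In cNK samples labelled WT these were at 44.6 to 46.9 CPM and 38.0 to 43.1 CPM. Without LrNK sample 1 labelled CD8KO, the median under that label was 0.89 in a fit with the same assumption. Eif2ak2 was then at -0.63, Trim30a at -0.49 and Ddx58 at -0.27, where Eif2ak2 and Trim30a had been at 0.47 and 0.08 with both samples.

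**Figure D4:**
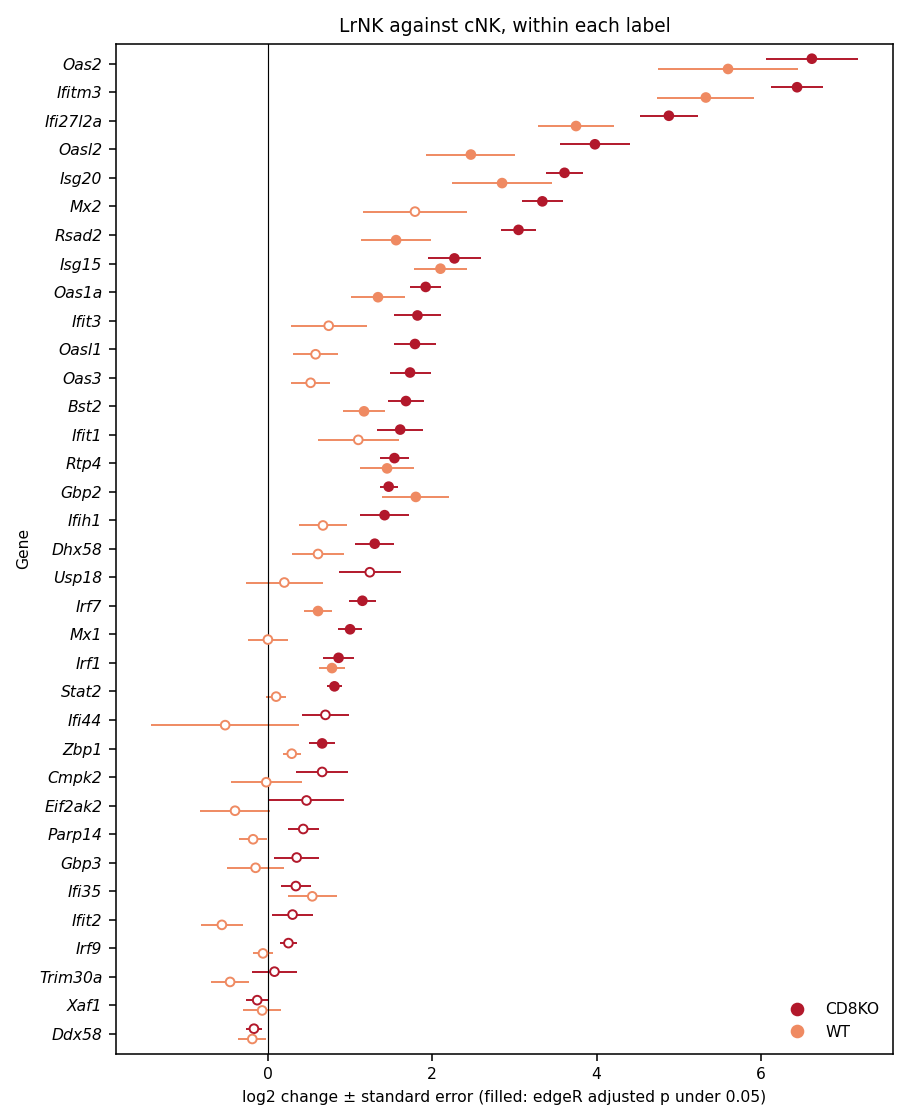
Log2 difference between LrNK and cNK cells for each of the 35 members, in samples labelled CD8KO (red) and WT (orange); bars are standard errors and filled points passed an edgeR adjusted p of 0.05. Filled points all lie to the right of 0, and the largest differences are those of Oas2, at 6.62 and 5.60, and Ifitm3, at 6.44 and 5.33.

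The comparison by label asks whether NK cells from mice lacking CD8 carry another interferon signature. In LrNK cells, 0 of the 35 members were called by edgeR at an adjusted p under 0.05, and 0% of the 16504 genes tested were. At an unadjusted p under 0.05 by edgeR, 11 members were higher and 0 lower, against 2.61% of all genes higher and 3.73% either way. The median log2 difference of the members was 0.76, with 30 positive and 5 negative, against 0.02 for all genes. In 12 members every sample labelled CD8KO was above every sample labelled WT, as were 9.84% of all genes, and in 0 members was it below, as were 8.47% of all genes.

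The members with the smallest p were Oas3, Oasl1, Ifi27l2a, Oasl2 and Rsad2, and none passed. Oas3 had 177.4 and 92.4 CPM in LrNK samples labelled CD8KO, against 64.3, 33.9 and 48.5 CPM in those labelled WT (log2 difference 1.47 ± 0.33, edgeR adjusted p = 1). Oasl1 had 28.3 and 45.2 CPM in LrNK samples labelled CD8KO, against 15.6, 12.4 and 11.2 CPM in those labelled WT (1.52 ± 0.34, edgeR adjusted p = 1). Neither overlapped between the labels, and Oasl1 was alone among these in being higher in sample 2 labelled CD8KO than in sample 1. The log2 difference was 1.80 ± 0.49 for Ifi27l2a, 1.84 ± 0.58 for Oasl2 and 1.30 ± 0.41 for Rsad2 (edgeR adjusted p = 1 for each). Mx1, Mx2, Irf7, Oas2, Stat2, Oas1a and Ifit2 also did not overlap, with log2 differences from 0.54 for Stat2 to 1.92 for Oas2. Negative values were those of Gbp2 at -0.32, Ifi35 at -0.16, Isg15 at -0.11, Xaf1 at -0.08 and Irf1 at -0.01, each with overlapping samples.

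Since detected genes split the LrNK samples, the labels were also compared within each set, as values without a test. Among samples with few detected genes (sample 1 labelled CD8KO against samples 1 and 3 labelled WT) 31 members were positive with a median of 0.88. Among those with many (sample 2 of each label) 34 were positive with a median of 0.86; 30 were positive in both. The summed myeloid markers were likewise higher in the sample labelled CD8KO within each set, at 10091.5 CPM against 3139.3 and 4901.7 CPM in the samples labelled WT with few detected genes. They were at 3173.0 CPM in the sample labelled CD8KO with many detected genes, against 1158.1 CPM in the one labelled WT. Of the 10 B cell markers 10 were positive between the labels in LrNK cells, with a median log2 difference of 3.23, and of the 6 plasmacytoid dendritic cell markers 6 were, with a median of 1.22. The part of these cells in the members' difference was not tested. Without sample 1 labelled CD8KO the members' median was 0.33. DESeq2 in place of edgeR called 1 member, Oas3, and the share of all genes it called is not given here. The fit of all 4 groups called 2, Oas3 and Oasl1, among 138 of all genes called. Without the low count filter 6 members were called, among 259 of all genes called. The 6 were Oas2, Oas3, Oasl1, Oasl2, Ifitm3 and Ifi27l2a.

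**Figure D5:**
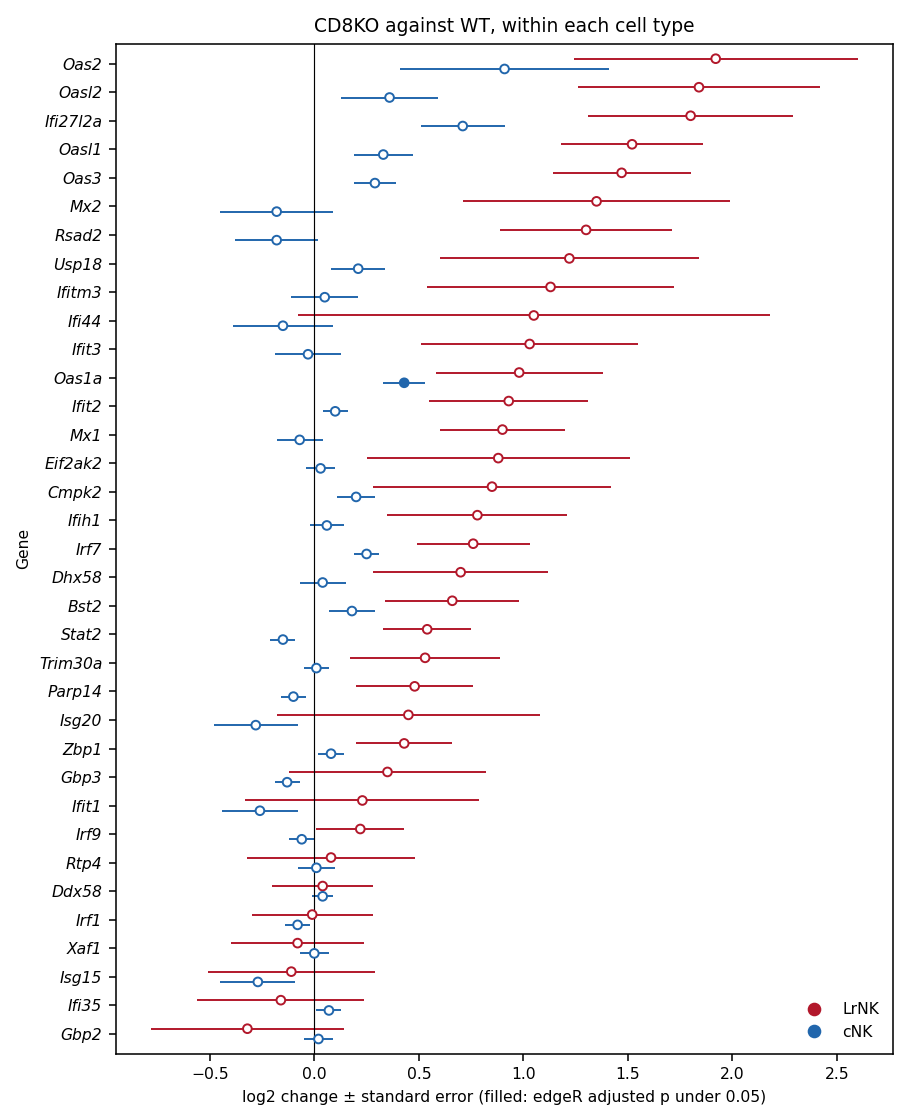
Log2 difference between samples labelled CD8KO and samples labelled WT for each of the 35 members, in LrNK cells (red) and cNK cells (blue); bars are standard errors and the filled point passed an edgeR adjusted p of 0.05. The LrNK points lie mostly to the right of 0 with wide bars, around a median of 0.76, and the cNK points lie close to 0, around a median of 0.03, with Oas1a in cNK cells as the filled point.

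In cNK cells, where samples of a group lay much closer together, 1 of the 35 members was higher in samples labelled CD8KO and 0 were lower (edgeR, adjusted p under 0.05). Of the 16619 genes tested, 0.499% were called higher, 0.812% lower and 1.31% either way. The median log2 difference of the members was 0.03, with 21 positive and 14 negative, against 0 for all genes. At an unadjusted p under 0.05 by edgeR 8 members differed in either direction, as did 12.9% of all genes. Oas1a, the member that passed, had 24.1, 25.6 and 28.5 CPM in cNK samples labelled CD8KO, against 22.2, 18.5 and 17.1 CPM in those labelled WT (0.43 ± 0.10, edgeR adjusted p = 0.0404). The labels did not overlap, but the call was lost when cNK replicate 2 or 3 of either label was left out, where the edgeR adjusted p was 0.0652 to 0.162.

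Irf7 came close, with 119.8, 128.1 and 127.4 CPM in cNK samples labelled CD8KO, against 112.8, 95.8 and 106.0 CPM in those labelled WT (0.25 ± 0.06, edgeR adjusted p = 0.0524). Ifi27l2a had 4.26, 6.75 and 8.42 CPM in cNK samples labelled CD8KO, against 4.16, 3.81 and 3.87 CPM in those labelled WT (0.71 ± 0.20, edgeR adjusted p = 0.104). Neither overlapped between the labels, although the lowest Ifi27l2a value under CD8KO, 4.26 CPM, was just above the highest under WT, 4.16 CPM. Oas3 (0.29 ± 0.10, edgeR adjusted p = 0.228) and Stat2 (-0.15 ± 0.06, edgeR adjusted p = 0.284) were the next by p. Stat2 had 67.9, 65.2 and 68.4 CPM in cNK samples labelled CD8KO, against 80.9, 68.8 and 73.2 CPM in those labelled WT, with 68.4 CPM just under 68.8 CPM. Without overlap, 4 members lay higher under CD8KO (Oas1a, Irf7, Ifi27l2a and Ifi35), as did 9.68% of all genes, and 2 lay lower (Stat2 and Gbp3), as did 8.35%. DESeq2 called 3 members in this comparison, namely Oas1a, Irf7 and Ifi27l2a, and limma-voom called Oas1a and Irf7. The share of all genes called by these methods is not given here, so these counts cannot be set against it.

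Whether the label acted differently in LrNK and cNK cells was tested as the difference of the label's effects, LrNK minus cNK, in a fit of all 4 groups. By edgeR 0 of the 35 members were called, and 0.0415% of the 19287 genes tested were; 6 members had an unadjusted edgeR p under 0.05, as did 8.44% of all genes. The members' median was 0.69, against 0.07 for all genes, and 0.29 without LrNK sample 1 labelled CD8KO. Stat2 had the smallest p: its label effect was 0.54 ± 0.21 in LrNK cells and -0.15 ± 0.06 in cNK cells, a difference of 0.72 ± 0.16 (edgeR adjusted p = 0.229). Stat2 had 115.3 and 101.4 CPM in LrNK samples labelled CD8KO and 83.0, 73.8 and 69.2 CPM in LrNK samples labelled WT, so that it was higher under CD8KO in LrNK cells and lower in cNK cells, without overlap in either. Oasl1 (1.21 ± 0.36), Oas3 (1.21 ± 0.38), Mx1 (1.00 ± 0.32) and Rsad2 (1.5 ± 0.52) followed, with edgeR adjusted p from 0.390 to 0.462.

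The pathway above the module was read from lists of its parts. Of the 19 interferon ligand genes, 12 had no count in any library, among them 10 of the 13 interferon alpha genes listed. A count of 0 over a group allows a level of up to 0.0239 CPM in LrNK samples labelled CD8KO and 0.0193 CPM in LrNK samples labelled WT (3 counts over the group, counting error only). Ifnb1 was seen in LrNK sample 2 labelled CD8KO, at 1.40 CPM, and in LrNK sample 2 labelled WT, at 0.177 CPM. Ifng, the type II ligand, was the ligand gene abundant enough to be tested within pairs of groups. It was higher in LrNK than in cNK cells under CD8KO (1.46 ± 0.38) and WT (1.67 ± 0.44, edgeR adjusted p = 0.0387 and 0.0409). It had 130.0 and 312.4 CPM in LrNK samples labelled CD8KO, against 89.1, 93.4 and 84.1 CPM in cNK samples of that label. Ifng had 159.4, 553.0 and 333.9 CPM in LrNK samples labelled WT, against 124.2, 116.6 and 114.6 CPM in cNK samples of that label. In cNK cells Ifng was lower under CD8KO than under WT, without overlap (-0.42 ± 0.06, edgeR adjusted p = 0.00111).

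Of 9 receptor chain and JAK kinase genes, 4 were higher and 2 lower in LrNK than in cNK cells under CD8KO, and 3 were higher and 2 lower of the 8 tested under WT. Jak1 was lower in LrNK cells under CD8KO (-1.64 ± 0.11) and WT (-1.55 ± 0.16), and so was Tyk2 (-0.89 ± 0.15 and -1.27 ± 0.17), while Jak2 was higher (0.91 ± 0.11 and 0.92 ± 0.16). For these the edgeR adjusted p was 0.000675 to 0.0110. Of the receptor chains, Ifnar1 was called under neither label (-0.15 ± 0.09 under CD8KO and -0.23 ± 0.12 under WT, edgeR adjusted p = 0.286 and 0.254). Nor was Ifngr1 (-0.12 ± 0.10 and -0.31 ± 0.12) or Il10rb (-0.22 ± 0.09 and -0.15 ± 0.11). Ifnar2 was higher in LrNK cells (0.55 ± 0.10 and 0.74 ± 0.18, edgeR adjusted p = 0.0132 and 0.0298), and so was Ifngr2 (5.77 ± 0.66 and 4.29 ± 0.69, edgeR adjusted p = 0.00325 and 0.00842). Ifngr2 was at 79.4 and 27.1 CPM in LrNK samples labelled CD8KO and 42.3, 6.84 and 31.3 CPM in LrNK samples labelled WT. It was, like the myeloid marker sums, highest in sample 1 labelled CD8KO and lowest in sample 2 labelled WT. Ifnlr1, the lambda receptor chain, was at 2.23 and 0.257 CPM in LrNK samples labelled CD8KO and at 0 in all cNK samples. Between the labels, 0 of the 9 in LrNK cells and 0 of the 8 tested in cNK cells were called by edgeR.

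Among the 12 genes of interferon induction, 5 were higher and 2 lower in LrNK than in cNK cells under CD8KO, and 4 higher and 1 lower under WT. The endosomal receptors Tlr7 (4.52 ± 0.62 under CD8KO and 2.72 ± 0.50 under WT) and Tlr9 (6.24 ± 0.43 and 4.20 ± 0.78) and the transcription factor Irf5 (3.79 ± 0.24 and 2.87 ± 0.38) were the highest, with edgeR adjusted p from 0.000618 to 0.0138. Irf5 had 373.0 and 203.2 CPM in LrNK samples labelled CD8KO and 165.7, 70.7 and 222.5 CPM in LrNK samples labelled WT. It was likewise highest in sample 1 labelled CD8KO and lowest in sample 2 labelled WT. Of 5 genes of negative feedback, Socs1 and Ptpn6 were higher in LrNK cells under both labels and Socs3 under CD8KO. Socs1, which blocks the JAK kinases, differed by 2.04 ± 0.32 under CD8KO and 2.56 ± 0.29 under WT (edgeR adjusted p = 0.0088 and 0.00238).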

How the data were processed

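RNA from sorted NK cells was made into libraries with a TruSeq RNA kit, per the labels' protocols. Reads were aligned with HISAT2 2.1.0 to GRCm38, per the submitters' processing notes; which tool counted them, over which annotation and on which strand, is not given in the sources used here. The deposited values are whole-number counts per Ensembl gene, 1 file per library, which the authors did not normalize. Symbols and exon lengths came from GENCODE M21, in which 54495 of the 54532 IDs were found and 37 were not. Libraries were compared by a chi-square test over genes with at least 12 counts, and those agreeing with under 4 per degree of freedom and over 3 times more closely than others of the group were summed, which left 11 samples of 13 libraries. CPM are counts per 1e6 counts of the library.

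Each comparison was fitted to its own groups (edgeR 4.0.16, R 4.3.3, TMM, filterByExpr with a minimum count of 10 and total of 15, quasi-likelihood test, Benjamini-Hochberg adjustment over all genes tested, called under 0.05); the difference of label effects used all 4 groups. All 35 members passed the filter in every comparison. Values after ± are standard errors of log2 differences. The fits were tested on simulated data. Alternatives were a fit of all 4 groups, DESeq2 (1.42.0) size factors, no filter, DESeq2, limma (3.58.1) voom with group weights, the 13 libraries kept separate, a replicate block and leaving out each replicate; library totals alone and leaving out LrNK samples with under 16000 detected genes were added after the data were seen. The members, the pathway and marker lists, and the rule for named genes (every member; in each comparison values for those passing, or the 5 smallest p where fewer than 3 pass; pathway genes only where they pass, or as receptors) were chosen with earlier results of these data known. One further gene of the pathway is not reported here. Marker genes are named where they check a label or move with the members. Sequences are RefSeq's, from the promoter table of GRCm38.p6, and 9 members have no entry in it: Dhx58, Usp18, Oas2, Mx1, Mx2, Zbp1, Rtp4, Parp14 and Ifi27l2a.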

Additional observations from a re-analysis of the deposited data

Results flagged for a closer look

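Stat2 is listed because its label effect differed between the cell types by 0.72 on the log2 scale (LrNK minus cNK), with every LrNK sample labelled CD8KO above every LrNK sample labelled WT, at 115.3 and 101.4 CPM against 69.2 to 83.0 CPM, and every cNK sample labelled CD8KO below every cNK sample labelled WT, at 65.2 to 68.4 CPM against 68.8 to 80.9 CPM. The test of the difference itself did not pass by edgeR (adjusted p = 0.229). It passed with DESeq2 (adjusted p = 0.00138) and by edgeR without LrNK replicate 2 labelled WT (adjusted p = 0.0387). It was the 1 member of 35 for which the samples of each cell type moved in opposite directions without overlap. Without overlap, 9.84% of all genes lay higher under CD8KO in LrNK cells and 8.35% lay lower in cNK cells. The share of all genes doing both was not counted, so 1 of 35 cannot be called unusual.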

How the results depend on the processing

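No member that passed in the main setting reversed its direction. Of those that did not pass there, Eif2ak2 and Trim30a changed sign between LrNK and cNK cells labelled CD8KO, from 0.47 and 0.08. Eif2ak2 was at -0.63 without LrNK replicate 1 labelled CD8KO and 1.05 without replicate 2, and Trim30a at -0.49 and 0.45. Replicate 1 is the library with few detected genes, so leaving that out gave the same -0.63 and -0.49. Under WT, leaving out the LrNK samples with few detected genes moved Usp18 from 0.20 to -0.76. All these fits leave 1 LrNK sample, so only their values are given. The members' median log2 difference kept its sign except for cNK cells by label when a replicate was left out (-0.01 to 0.11). In LrNK cells by label the count called was 0 in the main setting, 2 with all 4 groups in 1 fit, 6 without a low count filter and 1 with DESeq2. Over all genes, 0 were called in the main setting, 138 with all 4 groups in 1 fit and 259 without a low count filter. In cNK cells by label the count of members called was 1 in the main setting, where 1.31% of all genes passed. It was 0 with all 4 groups in 1 fit, 4 without a filter, 3 with DESeq2 and 2 with limma-voom. The share of all genes called is not given here for these other fits, or for DESeq2 in the other comparisons. Between LrNK and cNK cells labelled WT, leaving out the LrNK samples with few detected genes gave 26 calls and a median of 0.07, and between those labelled CD8KO a median of 0.89. For the difference of label effects DESeq2 called 1 member, Stat2. Leaving out 1 replicate at a time gave 0 calls and medians of 0.33 to 1.03 in LrNK cells by label, and 0 to 2 calls in cNK cells by label. Between LrNK and cNK cells labelled CD8KO it gave medians of 0.89 to 1.55, with 16 or 17 calls where a cNK replicate was left out. Between those labelled WT it gave 4 to 17 calls and medians of 0.35 to 0.73. For the difference of label effects it gave 0 to 1 calls and medians of 0.29 to 0.97. The cause of these changes was not tested. Whether replicate numbers pair the samples could not be settled from correlations of same-numbered deviations from the group means. The correlations were 0.31 and 0.49 in LrNK cells by label, and -0.05 to 0.19 in cNK cells. In LrNK cells only 2 pairs exist, and the 2 deviations of the group labelled CD8KO mirror each other. The same-numbered LrNK samples of these pairs were also alike in having few or many detected genes. With the replicate block, 6 members were called in LrNK cells by label and 2 in cNK cells by label, and the other comparisons kept their counts within 1.5 times. Library totals in place of TMM moved the median of all genes between LrNK and cNK cells labelled CD8KO to -0.17, against -0.05 with TMM, with 22 in place of 23 members called. LrNK samples varied by a biological coefficient of variation of 98.2%, against 9.6% in cNK samples, which limits what the LrNK comparison by label can detect.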

Other observations

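Of 46 further interferon-induced genes, 45 were tested between LrNK and cNK cells, where 19 were higher and 5 lower in LrNK cells labelled CD8KO and 13 higher and 3 lower in LrNK cells labelled WT (edgeR, adjusted p under 0.05). Of all genes tested, 15.4% were called higher and 11.6% lower under CD8KO, and 10.9% higher and 9.83% lower under WT. Ifitm2, a close relative of Ifitm3, had 70.1 and 49.7 CPM in LrNK samples labelled CD8KO, against 0.247, 0.486 and 0.437 CPM in cNK samples of that label, and 11.3, 19.7 and 30.5 CPM in LrNK samples labelled WT, against 0.437, 0.234 and 0.430 CPM in cNK samples of that label. Ly6e, a surface protein that restricts virus fusion, had 1575.5 to 2193.0 CPM over all LrNK samples and 487.8 to 658.8 CPM over all cNK samples (log2 difference 1.82 ± 0.13 under CD8KO and 1.86 ± 0.11 under WT, edgeR adjusted p = 0.000878 and 0.000243). Samd9l, Sp100 and Gbp7 were lower in LrNK cells under both labels, with log2 differences of -1.13 ± 0.25, -0.71 ± 0.16 and -1.07 ± 0.25 under CD8KO.

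In cNK cells by label, 2 of the 44 tested passed, as did 1.31% of all genes. Herc6, the mouse ligase that attaches Isg15 to proteins, had 43.0, 44.6 and 52.0 CPM in cNK samples labelled CD8KO, against 34.1, 27.2 and 28.9 CPM in those labelled WT (0.62 ± 0.08, edgeR adjusted p = 0.00111), and Ly6e differed by 0.24 ± 0.05 (edgeR adjusted p = 0.0407). In LrNK cells by label 0 of the 45 tested passed by edgeR, as did 0% of all genes. At an unadjusted edgeR p under 0.05 there were 4, against 3.73% of all genes. Ifitm2 differed by 1.55 ± 0.43 (edgeR adjusted p = 1).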
